A study of Homo sapiens with 16 samples.

Results

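The 10 genes described here encode RGS proteins, the regulators of G-protein signalling, in human cancer cell lines that differ in STAG2. They are RGS1, RGS2, RGS4, RGS5, RGS7, RGS10, RGS16, RGS17, RGS18 and RGS20, out of 18417 genes represented on the array by a probe set annotated to 1 gene. Each had 1 such probe set. RGS18 was selected on its measured difference between STAG2-deficient and STAG2-corrected H4 cells, and the other genes were taken as relatives of it, RGS1 and RGS2 also as its neighbours on the long arm of chromosome 1. The H4 comparison is therefore given for these genes as a description, with no test.

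A heterotrimeric G protein is switched on when a receptor at the cell surface makes its alpha subunit bind GTP, and it is switched off when that GTP is hydrolysed. RGS proteins bind the active alpha subunit and speed up hydrolysis, so that the signal from the receptor ends sooner. Many RGS genes are themselves induced by the signals they restrain, and their expression differs widely between tissues: RGS1 and RGS18 are known from blood cells and platelets, RGS5 from pericytes, RGS4 and RGS7 from neurons.

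The study measured total RNA on Affymetrix Human Gene 1.0 ST arrays, 1 array for each of 16 cultures, in the brain tumour lines H4 and 42MGBA, labelled as glioblastoma cells, and the colorectal cancer line HCT116. In H4, clones 10 and 12, which had not recombined, joined the parental line in the STAG2-mutant (deficient) group, and the corrected group was the post-Cre knock-in clones 8-1, 8-3 and 88-1. In 42MGBA, the deficient group was the STAG2-mutant parental line and the pre-Cre knock-in clones 53 and 92, and the corrected group was the post-Cre clones 53-1, 53-7 and 92-6. In HCT116, STAG2 was wild-type in clones 24 and 27, which had not recombined, and knocked out in clones 7 and 21. The cells were proliferating and untreated. Each array is 1 line or 1 clone, and 8-1 with 8-3, 92 with 92-6, and 53, 53-1 and 53-7 share a clone number, so chance differences among clones enter every comparison. Values are on the log2 scale of the RMA method, on which 1 unit is a doubling of the signal.

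STAG2, the cohesin subunit gene that was mutated, corrected or knocked out, checks the labels. In H4 arrays its log2 level was 6.72 ± 0.21 with the mutation and 8.91 ± 0.04 after correction (SD, n = 3 each), and it was 6.85 ± 0.41 (SD, n = 2) in knockout and 9.29 ± 0.01 (SD, n = 2) in wild-type HCT116 arrays. In 42MGBA it was 5.23 ± 0.44 (SD, n = 3) in arrays labelled deficient and 5.53 ± 0.12 (SD, n = 3) in arrays labelled corrected, and these ranges overlap, so directions within that line rest on the labels alone. The 42MGBA arrays also lie on another scale, their array medians reaching 5.05 where the lowest was 6.23 for H4 and 6.24 for HCT116. Levels of a gene are therefore set beside those in 42MGBA only as percentiles among all rows of the same array. Among cell type markers, the epithelial gene EPCAM (mean percentile 97.0 in HCT116 wild-type, 21.4 in deficient H4) and the mesenchymal gene VIM (37.8 against 96.3) separated HCT116 from H4. With functional STAG2 in both, corrected H4 minus wild-type HCT116, the log2 difference was -7.05 for EPCAM and 5.59 for VIM. The summed log2 level of 10 colorectal epithelial markers ran from 58.2 to 62.3 in H4 and from 77.6 to 79.4 in HCT116. Not every marker went this way. Of 8 glial and neural markers, 2 were above the median on all H4 arrays and 2 on all HCT116 arrays. NES was lower in corrected H4 than in wild-type HCT116 (difference -0.54, limma adjusted p = 0.00603). The glial genes GFAP, S100B, SOX2 and OLIG2 had mean percentiles under 50 in every group of both brain tumour lines.

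Of the 10 genes, 5 passed the filter for testing, a value above the array's median on at least 2 of the 16 arrays: RGS2, RGS10, RGS16 and RGS17, and RGS18, which passed on 3 arrays only, the deficient H4 arrays in which it was high. RGS1, RGS4, RGS5, RGS7 and RGS20 were under the median of the array on all 16 arrays. No test of signal over background was made, so a low value shows neither presence nor absence of the RNA.

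The RGS18, RGS1 and RGS2 genes follow each other on chromosome 1, with RGS21 and RGS13 between them, and their upstream sequences are shown because RGS18 and RGS2 were higher in deficient H4 cells while RGS1, which lies between them, was low on every array. Each line gives the 250 bases before the RefSeq start of the gene, from build GRCh38.p14, plus strand, 5′ to 3′. Capitals mark the matches, on either strand, to a TATA box (TATAAA) or to the core of a cAMP response element, whose letters are TGACG.
RGS18, chr1:192158212-192158461: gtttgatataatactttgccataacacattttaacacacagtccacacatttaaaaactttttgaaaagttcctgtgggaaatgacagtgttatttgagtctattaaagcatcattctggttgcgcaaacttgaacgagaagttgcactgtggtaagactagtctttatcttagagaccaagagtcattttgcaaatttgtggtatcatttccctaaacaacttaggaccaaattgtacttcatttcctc
RGS1, chr1:192575523-192575772: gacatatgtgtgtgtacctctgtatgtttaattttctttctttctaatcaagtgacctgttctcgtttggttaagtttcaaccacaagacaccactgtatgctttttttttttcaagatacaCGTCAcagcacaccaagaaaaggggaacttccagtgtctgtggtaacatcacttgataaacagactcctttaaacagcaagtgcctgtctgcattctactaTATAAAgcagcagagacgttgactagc
RGS2, chr1:192808789-192809038: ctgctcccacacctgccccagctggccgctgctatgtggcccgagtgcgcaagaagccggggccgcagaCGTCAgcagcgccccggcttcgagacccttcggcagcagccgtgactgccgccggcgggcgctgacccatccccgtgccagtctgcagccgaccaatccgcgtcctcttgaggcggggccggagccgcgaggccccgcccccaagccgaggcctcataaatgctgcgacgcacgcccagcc

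The 3 sequences differ in base composition. The window of RGS18 was 34.8% G and C with 2 CpG dinucleotides, that of RGS1 39.2% with 3, and that of RGS2 72.8% with 28, against medians of 58.0% and 11 CpG over the 35116 RefSeq promoter windows of this length. Both strands were searched. The TATA box was found in 10.7% of all windows, the cAMP response element core in 21.2%, the AP-1 site (TGANTCA) in 6.57% and a CTCF core motif in 2.02%. RGS1 held a TATA box match starting 27 bases before the start and a cAMP response element core starting 128 bases before it, RGS2 held a cAMP response element core starting 181 bases before it, and RGS18 held none of the 4; no match overlapped another. A match is a description of the letters and not a binding site, and a window with no match says nothing about the factor. Windows were found for 9 of the 10 genes.

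**Figure D1:**
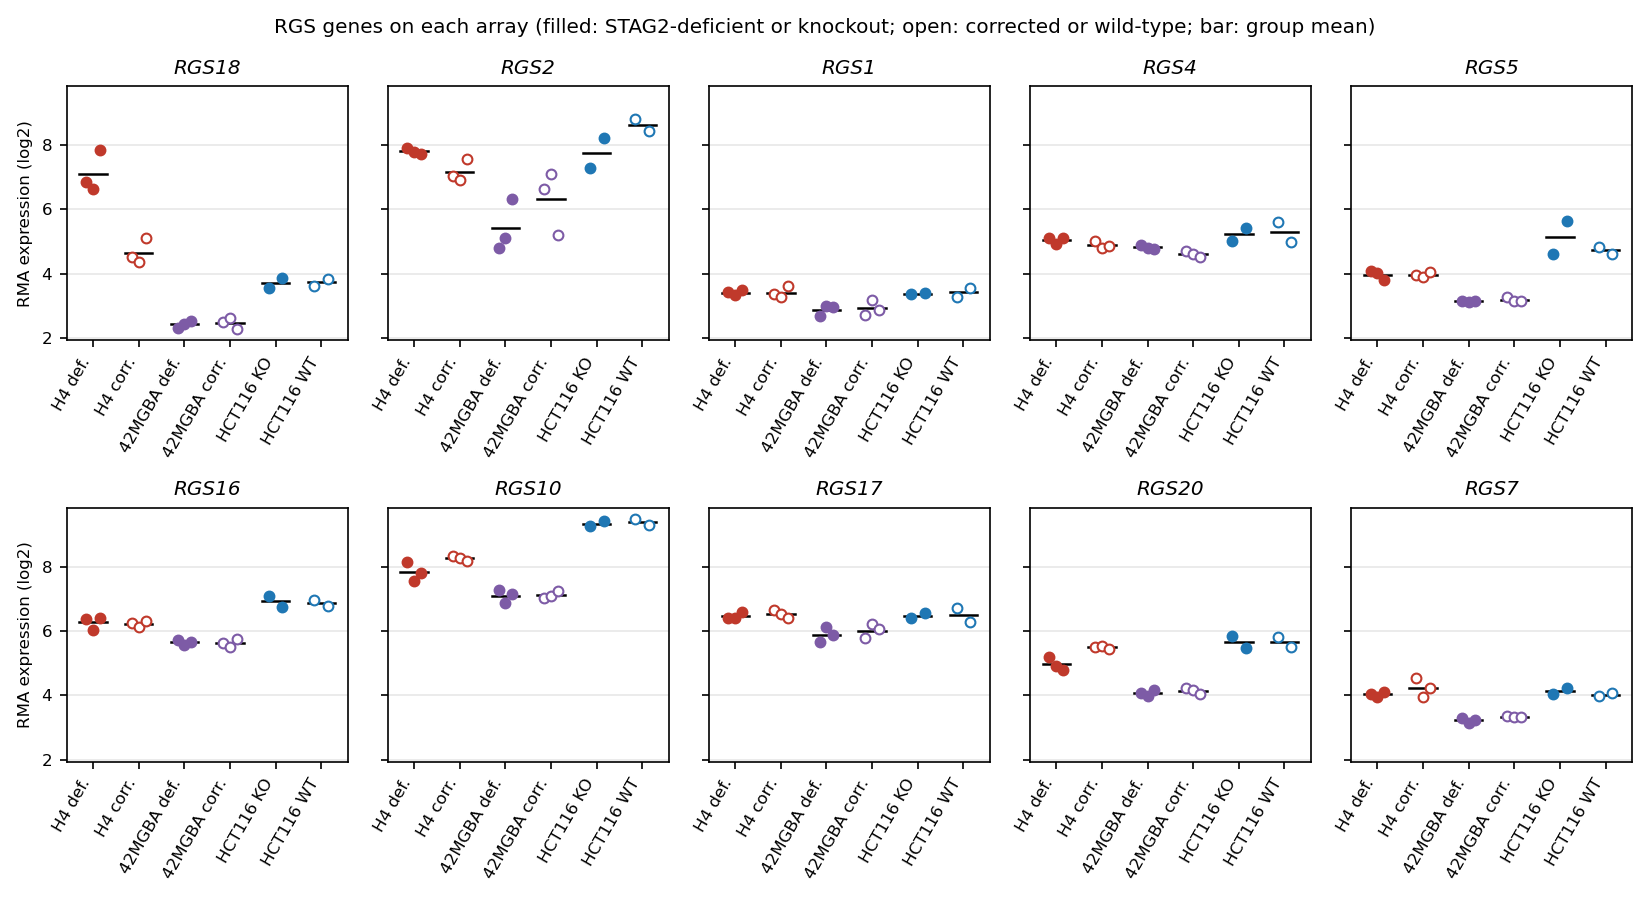
RMA expression (log2, vertical axis) of the 10 RGS genes on each of the 16 arrays, by cell line and STAG2 label; filled points are deficient or knockout arrays, open points corrected or wild-type arrays, bars group means. RGS18 stands between 6.63 and 7.84 in deficient H4 arrays and between 4.35 and 5.10 in corrected ones, and RGS2 spreads from 4.80 to 7.11 over the 42MGBA arrays; levels of different genes are not comparable on this axis.

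RGS18 encodes a small RGS protein that limits Gi and Gq signals in platelets and other blood cells. In deficient H4 cells its log2 level was 6.84 in the parental line, 6.63 in clone 10 and 7.84 in clone 12, and in corrected cells it was 4.51 in 8-1, 4.35 in 8-3 and 5.10 in 88-1. Every deficient array lay above every corrected array, with clone 12 the highest and 8-3 the lowest. The group means were 7.11 ± 0.65 (SD, n = 3) and 4.66 ± 0.40 (SD, n = 3), a difference of 2.45 or 5.46-fold, which ran from 2.08 without clone 12 to 2.68 without clone 10. The corrected values lie close to the arrays' lower quartile, which ran from 4.49 to 4.53 in H4, where a signal above background was not shown, so the size of the fold is uncertain.

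In the other lines RGS18 stayed low with either label. It ran from 2.29 to 2.61 over the 6 arrays of 42MGBA and from 3.54 to 3.86 over the 4 arrays of HCT116, and the labelled groups overlapped in both. As a percentile of the array it averaged 62.2 in deficient and 26.8 in corrected H4 arrays, 14.4 in knockout and 14.7 in wild-type HCT116 arrays, and 7.29 and 8.18 in 42MGBA arrays labelled deficient and corrected. Deficient minus proficient, the log2 difference was -0.04 in 42MGBA and -0.03 in HCT116. No test is given, because RGS18 entered the fit only through the deficient H4 arrays and lay among the dim probe sets of these lines, where a change could go unseen.

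Of the 7 markers of blood cells and platelets on the array, 3 had higher means in deficient than in corrected H4 arrays and 4 lower ones. The largest difference upwards was that of SPI1, a transcription factor of myeloid cells, at 5.96 ± 0.20 against 5.80 ± 0.17 (SD, n = 3 each; limma adjusted p = 0.648). PTPRC, the leukocyte antigen CD45, had a mean percentile of 8.3 in deficient and 10.3 in corrected H4 arrays, and PF4, a platelet chemokine, 27.5 and 28.1. The summed log2 level of the 7 markers ran from 34.76 to 36.15 in deficient and from 35.20 to 36.06 in corrected H4 arrays, and these ranges overlap.

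RGS2 encodes an RGS protein with a preference for Gq, and its gene is a known early target of cAMP and calcium signals. In H4 it was 7.91 in the parental line, 7.79 in clone 10 and 7.74 in clone 12, and 7.04 in 8-1, 6.91 in 8-3 and 7.56 in 88-1. The deficient arrays lay above the corrected ones without overlap, with 88-1 nearest to them, and the means of 7.81 ± 0.09 (SD, n = 3) and 7.17 ± 0.34 (SD, n = 3) differed by 0.64 or 1.56-fold. In HCT116 RGS2 was 8.83 in clone 24 and 8.45 in clone 27, both wild-type, and 7.30 in clone 7 and 8.23 in clone 21, both knockout. The knockouts did not overlap the wild-type clones, but clone 21 lay within 0.22 of clone 27, and the difference of -0.88 (95% interval -2.01 to 0.25) did not pass an adjusted p of 0.05 in limma, the threshold used throughout (adjusted p = 0.733). It was -0.41 without clone 7 and -1.34 without clone 21. The interval rests on a spread shared by all 6 groups, with an SE of 0.53. With the spread from HCT116 arrays alone the SE was 0.31, and the difference again did not pass (limma adjusted p = 0.634).

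In 42MGBA RGS2 varied more than in the other lines, and it did so among arrays of the same label. It was 4.80 in the parental line, 5.12 in clone 53 and 6.34 in clone 92, which are labelled deficient, and 6.65 in 53-1, 7.11 in 53-7 and 5.21 in 92-6, which are labelled corrected. The parental line, 53 and 92-6 were low and 92, 53-1 and 53-7 were high, so the labelled groups overlapped. The difference of -0.90 (95% interval -1.83 to 0.02) did not pass in limma (adjusted p = 1), and it was -1.46 without 92-6, -1.36 without 92, -0.59 without the parental line and -0.51 without 53-7. Within the clones that share a number the directions were opposite: 53 was 1.76 lower than the mean of 53-1 and 53-7 on the log2 scale, and 92 was higher than 92-6 by 1.13. STAG2 in the same clones was 5.34 in 53, 5.65 in 53-1, 5.41 in 53-7, 5.60 in 92 and 5.53 in 92-6. The within-group SD of RGS2 in 42MGBA was 0.90, above that of 99.9% of the 12978 genes tested, whose median was 0.13.

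The differences of RGS2 in HCT116 and in 42MGBA differed by 0.02 (95% interval -1.44 to 1.49), which did not pass in limma (adjusted p = 0.997), where 0.0231% of all genes did. So wide an interval does not show that they were alike. The within-group SD of RGS2 was 0.25 in H4 and 0.50 in HCT116.

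**Figure D2:**
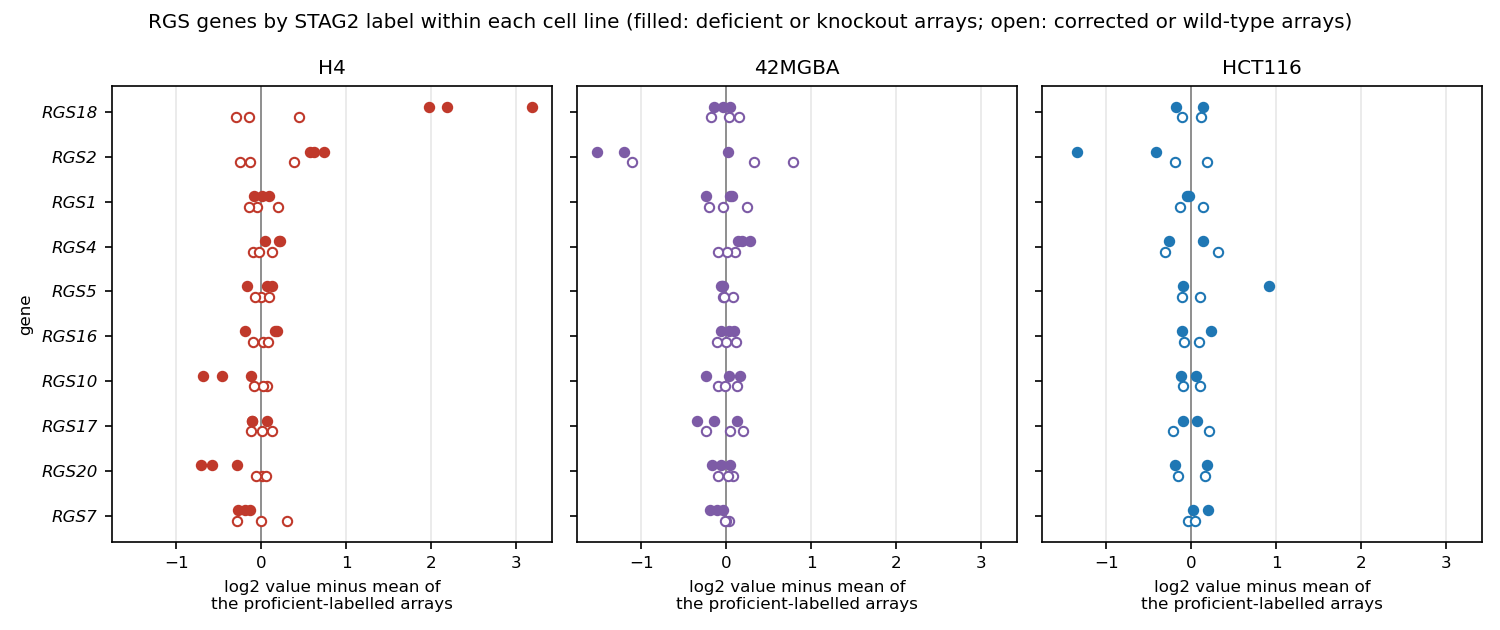
Each array's log2 value minus the mean of the arrays labelled corrected or wild-type in the same line, for the 10 RGS genes (rows) in H4, 42MGBA and HCT116; filled points are deficient or knockout arrays, open points corrected or wild-type arrays. RGS18 is displaced in H4 with a mean of 2.45, and in HCT116 the knockout arrays of RGS2 lie below both wild-type arrays.

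RGS1, which encodes an RGS protein of activated lymphocytes and monocytes, was low throughout. Its log2 level ran from 3.27 to 3.61 in H4, from 2.69 to 3.17 in 42MGBA and from 3.28 to 3.55 in HCT116. Its mean percentile was between 10.3 and 17.0 in the 6 groups, and the groups overlapped in each line. Between H4 groups its means were equal to the second decimal, 3.41 ± 0.09 and 3.41 ± 0.18 (SD, n = 3 each).

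Gene by gene along this stretch of chromosome 1, the differences in H4 were uneven. In the RefSeq gene order the protein-coding genes before RGS18 are PTGS2, the inducible cyclooxygenase, PLA2G4A, a phospholipase that releases arachidonic acid, and BRINP3, and those after RGS2 are UCHL5, RO60 and GLRX2. The genes were taken by order and not by distance, so they need not lie close to the RGS cluster. PTGS2 was 1.97 higher in deficient H4 arrays, at 9.31 against 7.34 (limma adjusted p = 0.00490, and 0.101 when H4 arrays alone supplied the spread). PLA2G4A was 0.31 and BRINP3 0.43 higher. Inside the cluster RGS21 differed by 0.06 and RGS13 by 0.19, both at mean log2 levels under 3.70 in H4. After RGS2 the differences were 0.10 for UCHL5, 0.12 for RO60 and 0.14 for GLRX2. Of these 11 genes, PTGS2, BRINP3, RGS18, RGS13, RGS2 and GLRX2 had deficient H4 arrays that all lay above the corrected ones. Over all genes the share was 10.3%. The stretch was taken around RGS18, which was selected on this comparison, and RGS2 was chosen with earlier results known. The count therefore cannot show an excess in this region and is a description. BRINP3 and RGS13 lay under the lower quartile of the H4 arrays, where a signal above background was not shown. In 42MGBA the difference was at most 0.27 in size for each of the 11 except RGS2, and in HCT116 RGS2 (-0.88) and RO60 (0.58) had the only differences over 0.15 in size.

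**Figure D3:**
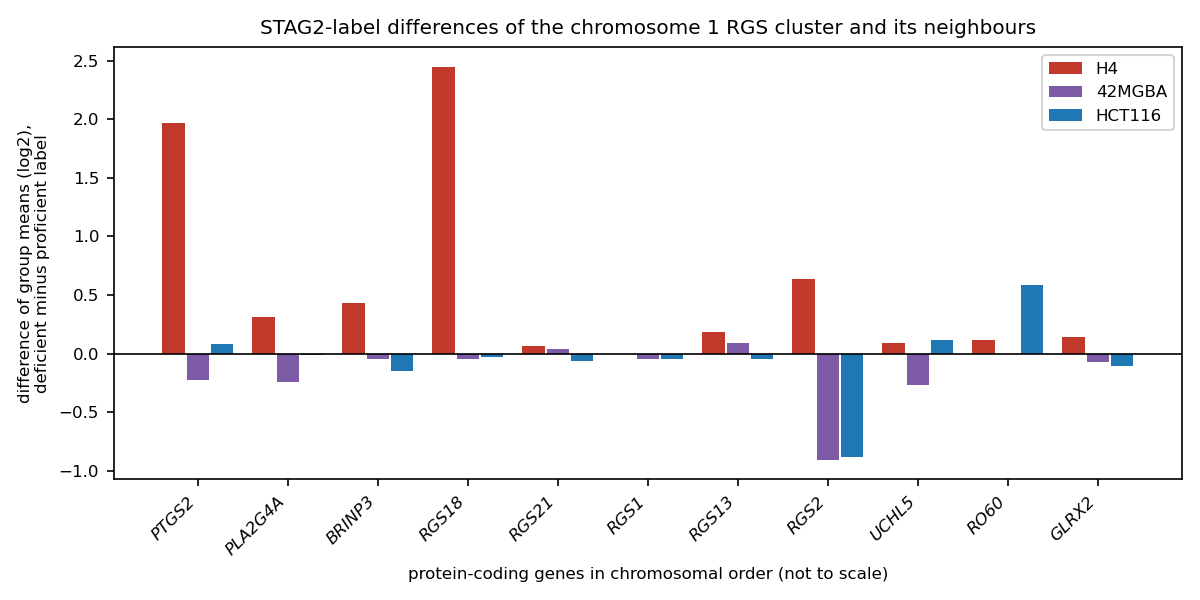
Difference of group means (log2, deficient minus proficient label, vertical axis) of 11 protein-coding genes in chromosomal order from PTGS2 to GLRX2 (horizontal axis, not to scale), in H4, 42MGBA and HCT116. In H4 the bars of PTGS2 (1.97) and RGS18 (2.45) stand out, with PLA2G4A (0.31) and BRINP3 (0.43) between them.

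RGS4, RGS5 and RGS16 encode small RGS proteins of the same subfamily as RGS1, RGS2 and RGS18, acting on Gi and Gq. RGS16 ran from 6.03 to 6.40 in H4, from 5.51 to 5.74 in 42MGBA and from 6.75 to 7.10 in HCT116, and the labelled groups overlapped in each line. The difference was 0.02 in 42MGBA (95% interval -0.24 to 0.27; limma adjusted p = 1) and 0.06 in HCT116 (-0.25 to 0.37; limma adjusted p = 0.961).

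RGS5 was low in H4, from 3.80 to 4.09, and in 42MGBA, from 3.13 to 3.27. In HCT116 it was 4.84 in clone 24, 4.62 in clone 27 and 4.63 in clone 7, and 5.64 in knockout clone 21. That clone stood 0.80 above the next array of the line. RGS4 ran from 4.80 to 5.11 in H4, from 4.52 to 4.90 in 42MGBA and from 4.99 to 5.60 in HCT116. In 42MGBA its arrays labelled deficient, at 4.90, 4.80 and 4.76, lay above those labelled corrected, at 4.72, 4.63 and 4.52, by a mean of 0.20.

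RGS10, RGS17 and RGS20 belong to other subfamilies: RGS10 is a short protein of glia and immune cells that acts on Gi, and RGS17 and RGS20 are related proteins of the group that acts on Gz and Gi. RGS10 in H4 was 8.14 in the parental line, 7.57 in clone 10 and 7.80 in clone 12, and 8.33 in 8-1, 8.28 in 8-3 and 8.18 in 88-1. The deficient arrays lay below the corrected ones, the parental line by only 0.04, with a mean difference of -0.43. Without clone 10 the difference was -0.29. In 42MGBA and HCT116 the groups overlapped, and the differences of -0.01 (95% interval -0.31 to 0.28) and -0.04 (-0.40 to 0.32) did not pass in limma (adjusted p = 1 and 0.982).

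RGS20 in H4 was 5.20 in the parental line, 4.91 in clone 10 and 4.78 in clone 12, and 5.50 in 8-1, 5.54 in 8-3 and 5.43 in 88-1. The deficient arrays were again the lower ones, with means of 4.96 ± 0.22 and 5.49 ± 0.06 (SD, n = 3 each), a difference of -0.52. In 42MGBA it ran from 3.97 to 4.22 and in HCT116 from 5.46 to 5.84, with overlap by label. RGS17 ran from 6.40 to 6.65 in H4, from 5.66 to 6.20 in 42MGBA and from 6.28 to 6.70 in HCT116. Its labelled groups overlapped in each line, and the differences of -0.12 in 42MGBA and -0.02 in HCT116 did not pass in limma (adjusted p = 1 and 0.994).

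RGS7, a larger protein that works in a complex with the G-protein subunit GNB5 in neurons, was low in all lines. It ran from 3.94 to 4.53 in H4, from 3.14 to 3.36 in 42MGBA and from 3.98 to 4.22 in HCT116. In 42MGBA its arrays labelled deficient, at 3.29, 3.14 and 3.21, lay below those labelled corrected, at 3.36, 3.33 and 3.31, by 0.11 on average.

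Counted over the 10 genes, the deficient H4 arrays lay above the corrected ones for RGS18 and RGS2 and below them for RGS10 and RGS20. Over all 18417 genes 10.3% lay above and 7.76% below in this way. In 42MGBA 1 gene lay above (RGS4) and 1 below (RGS7), where the shares of all genes are 2.92% and 6.33%, and in HCT116, with 2 arrays against 2, 0 lay above and 1 below (RGS2), where the shares are 18% and 20.4%. By limma's adjusted p, 0 of the 4 genes tested, RGS18 left out, passed in 42MGBA, where 0% of all 12978 genes tested passed, and 0 of 4 in HCT116, where 0.131% did. At an unadjusted p under 0.05 the count was 0 of 4 in either line, where 3.95% and 7.83% of all genes passed. With no filter 0 of the 9 genes other than RGS18 passed in either line in limma, where 0% and 0.0923% of all genes did. In H4, the comparison that was used to choose RGS18, 3.31% of all genes passed. The median difference of the 10 genes was 0.00 in H4, -0.05 in 42MGBA and -0.02 in HCT116, against 0.02, -0.03 and -0.01 over all genes.

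Between lines, with functional STAG2 in both, RGS2, RGS10 and RGS16 were lower in corrected H4 than in wild-type HCT116. RGS10 was 8.26 ± 0.07 (SD, n = 3) against 9.38 ± 0.14 (SD, n = 2), 2.17-fold lower (limma adjusted p = 2.29e-05). RGS16 was 6.22 ± 0.09 (SD, n = 3) against 6.86 ± 0.12 (SD, n = 2), 1.56-fold lower (limma adjusted p = 0.000889). RGS2 was 7.17 ± 0.34 (SD, n = 3) against 8.64 ± 0.27 (SD, n = 2), 2.77-fold lower (limma adjusted p = 0.0189). The call of RGS2 was lost without 8-3 (adjusted p = 0.0571) and without clone 24 (adjusted p = 0.123). RGS17 differed by 0.04 (95% interval -0.31 to 0.38; limma adjusted p = 0.869). Of 4 genes tested, 3 passed, all 3 lower in H4, where 52.7% of all genes passed and 29% were lower. With 4 genes tested, nothing particular to them is read from this count. RGS18, given as a description, was 0.93 higher in corrected H4, and RGS5, tested only with no filter, differed by -0.76 (limma adjusted p = 0.00536), where 40.2% of all genes passed.

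Ranks within the array place the third line. RGS10 had mean percentiles of 71.8 and 76.8 in deficient and corrected H4, 82.2 and 82.1 in 42MGBA arrays labelled deficient and corrected, and 88.0 and 87.9 in HCT116 knockout and wild-type, and the ranges of the 3 lines did not overlap. RGS17 averaged 53.4 in H4 and 53.2 in HCT116 and 65.0 in 42MGBA, whose arrays, from 60.1 to 69.1, all lay above those of the other lines. RGS4 likewise averaged 45.2 in 42MGBA, from 41.9 to 48.1, above 30.8 in H4 and 35.2 in HCT116. RGS16 averaged 49.6 in H4, below 59.8 in 42MGBA and 59.4 in HCT116, which overlapped. RGS5 averaged 30.7 in HCT116, above 18.2 in H4 and 21.3 in 42MGBA. RGS1, RGS7 and RGS20 had ranges that overlapped between at least 2 of the lines. RGS2 averaged 67.2 in H4, 63.5 in 42MGBA and 76.1 in HCT116, with all 3 ranges overlapping. The share of all genes whose ranks separate the lines in this way was not computed. In level, 52.7% of all genes tested passed in limma between corrected H4 and wild-type HCT116. Nothing particular to the RGS genes is therefore read from these ranks.

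**Figure D4:**
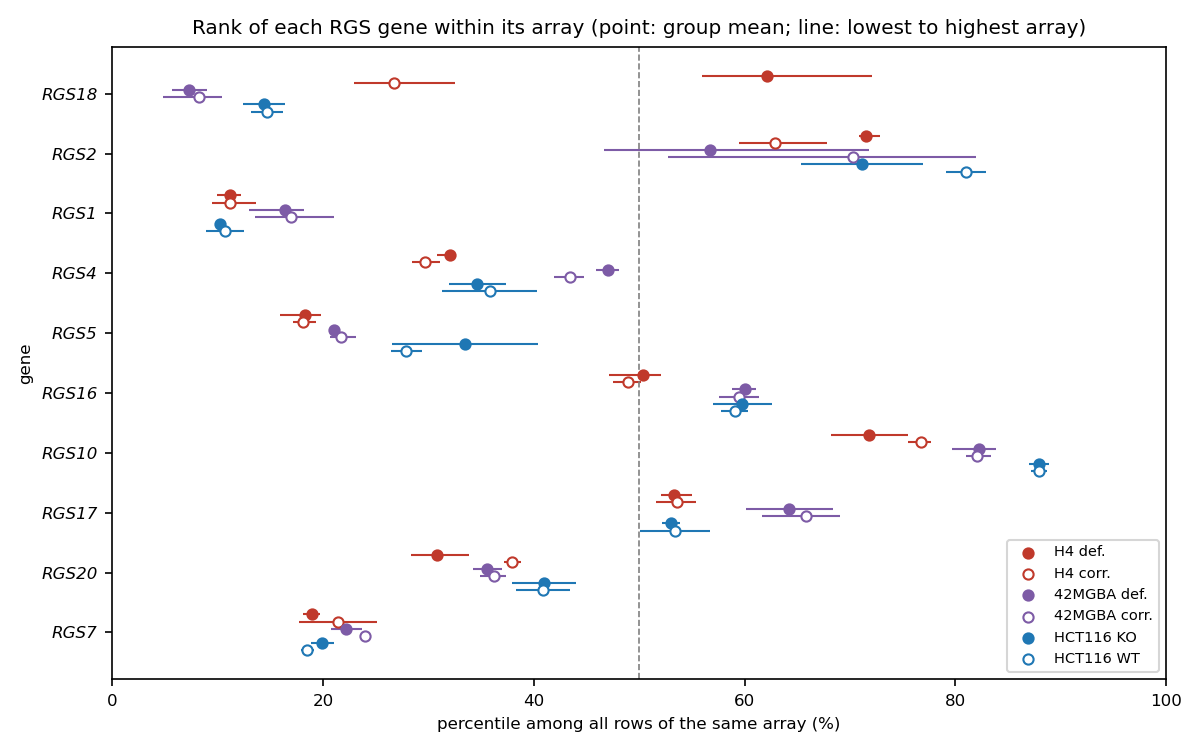
Percentile of each RGS gene among all rows of its array (horizontal axis, %), by cell line and STAG2 label; points are group means, lines run from the lowest to the highest array, and the dashed line is the array's median. RGS18 moves from a mean of 26.8 in corrected to 62.2 in deficient H4 arrays, and the 42MGBA arrays of RGS2 run from 46.6 to 82.0.

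The genes most like each RGS gene were sought among those tested, by Pearson's r of the values minus each line's mean over the 16 arrays; these arrays share clones and cell lines, so the values are descriptions. For RGS18 they were ST8SIA4, a sialyltransferase that makes polysialic acid (r = 0.97), the cadherin CDH7 (r = 0.96) and APRT, an enzyme of adenine salvage (r = 0.93). RGS18 had an SD of 1.42 over the H4 arrays, 0.12 over those of 42MGBA and 0.16 over those of HCT116. Its r values therefore rest mainly on the H4 difference that was used to choose it. ST8SIA4 was 9.80 ± 0.48 in deficient and 6.75 ± 0.22 in corrected H4 arrays (SD, n = 3 each), and its group means in HCT116 were 4.89 and 5.26. For RGS2 it was the zinc-finger gene OSR2 (r = 0.85), which in 42MGBA was 5.36 in the parental line, 6.28 in 53 and 6.73 in 92, and 6.97 in 53-1, 7.55 in 53-7 and 5.69 in 92-6. Within 42MGBA, OSR2 shared with RGS2 its lowest array (the parental line) and its highest (53-7). As OSR2 was picked for its likeness to RGS2, this is not a separate observation. The nearest genes were ZNF469 for RGS10 (r = 0.92), MED20 for RGS16 (r = 0.88) and FOXP3 for RGS17 (r = 0.82). Between RGS18 and RGS2 r was 0.39, and between RGS18 and RGS10 it was -0.66, values that also hold the H4 difference used to choose RGS18.

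The other genes with an RGS domain, or that anchor RGS proteins, were followed as a list of 23, of which 12 were tested. In H4, 42MGBA and HCT116 0 of the 12 passed in limma, where 3.31%, 0% and 0.131% of all genes did. At an unadjusted p under 0.05 there were 1, 0 and 3, where 16.4%, 3.95% and 7.83% of all genes passed. Nearest was GRK5, a kinase that desensitises G-protein-coupled receptors, at 7.15 ± 0.34 (SD, n = 2) in HCT116 knockouts and 8.16 ± 0.03 (SD, n = 2) in wild-type clones (difference -1.01, SE 0.21, limma adjusted p = 0.111). Between corrected H4 and wild-type HCT116 2 were higher, SNX13 (1.52) and RGS12 (0.70), and 3 lower, among them the receptor kinase GRK2 (-0.81) and AXIN2 (-0.58), a scaffold of the Wnt pathway; 7 of the 12 did not pass. Over all genes 23.7% were higher and 29% lower in this comparison.

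Among the G-protein subunits, the alpha subunits that RGS proteins act on and their beta and gamma partners, 1 of 24 tested rose in deficient H4 cells in limma, where 1.3% of all genes did. It was GNB2, which encodes a beta subunit (0.39, SE 0.09, limma adjusted p = 0.0308). At an unadjusted p under 0.05 there were 5 subunits in H4, where 16.4% of all genes passed. The call of GNB2 was lost without any 1 of the 6 H4 arrays (adjusted p from 0.0530 without the parental line to 0.110 without 88-1). In 42MGBA and HCT116 0 of the 24 passed in limma (0% and 0.131% of all genes), with 1 and 2 at an unadjusted p under 0.05 (3.95% and 7.83% of all genes). Between corrected H4 and wild-type HCT116, 10 were higher and 6 lower in limma, where 23.7% and 29% of all genes were. The beta subunit GNB4 was 9.06 ± 0.30 (SD, n = 3) in corrected H4 against 5.63 ± 0.12 (SD, n = 2) in wild-type HCT116, and the gamma subunit GNG11 8.54 ± 0.17 against 4.17 ± 0.06.

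Of 20 receptors upstream of these G proteins that were tested, 3 fell and 0 rose in deficient H4 cells in limma, where 2% of all genes fell. At an unadjusted p under 0.05 there were 7, where 16.4% of all genes passed. The receptor list, like the other lists, was drawn up with earlier results of these data known, so these counts are descriptions. LPAR1, a receptor of lysophosphatidic acid, was 6.63 ± 0.52 in deficient and 8.65 ± 0.26 in corrected arrays (SD, n = 3 each; difference -2.02, limma adjusted p = 0.000512). F2R, the thrombin receptor PAR1, was 8.52 ± 0.17 against 9.58 ± 0.28 (SD, n = 3 each; difference -1.06, limma adjusted p = 0.00213), and CHRM3, a muscarinic receptor coupled to Gq, 6.49 ± 0.07 against 7.17 ± 0.18 (SD, n = 3 each; difference -0.68, limma adjusted p = 0.00859). In 42MGBA and HCT116 0 of the 20 passed in limma (0% and 0.131% of all genes), with 3 and 0 at an unadjusted p under 0.05 (3.95% and 7.83% of all genes). Of 6 glial and neural markers tested in the same H4 comparison, NCAM1, a neural adhesion molecule, fell by 1.25 (limma adjusted p = 0.0487) and 5 did not pass. Of 2 endothelial and mural markers tested, PDGFRB, a receptor of mural cells, fell by 0.69 (limma adjusted p = 0.0253). The other, NOTCH3, was 0.11 higher and did not pass (limma adjusted p = 0.698). The part of NCAM1 and PDGFRB in the result for the receptors was not tested. Among 18 effectors tested, 1 fell and 0 rose in deficient H4 in limma, where 2% of all genes fell. It was the adenylyl cyclase ADCY1 (-0.87, SE 0.14, limma adjusted p = 0.00437). At an unadjusted p under 0.05 there were 7 effectors in H4, where 16.4% of all genes passed. In 42MGBA and HCT116 0 effectors passed in limma (0% and 0.131% of all genes), with 1 at an unadjusted p under 0.05 in each (3.95% and 7.83% of all genes). The median difference in H4 was 0.03 over the subunits, -0.07 over the receptors and -0.02 over the effectors, against 0.02 over all genes tested. When H4 arrays alone supplied the spread, LPAR1 still passed in limma, and F2R (adjusted p = 0.0531), CHRM3 (0.0643), ADCY1 (0.0831) and GNB2 (0.111) did not. The calls of NCAM1 and PDGFRB were not checked in this way.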

How the data were processed

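The authors deposited 1 table of log2 expression values for 33297 probe sets on 16 arrays, for which the submitters' processing notes name RMA and Affymetrix Expression Console; versions, settings and genome build are not given in the sources used here, and the log2 scale follows from the range of the values. The authors' RMA subtracts background, gives arrays processed together a common distribution and summarises probes, which compresses differences of dim probe sets.

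Groups were taken from the sample titles. Of the rows, 19460 had 1 gene in the platform annotation, 1754 several and 12083 none; symbols were updated through Entrez identifiers to RefSeq (GRCh38.p14), and the row with the highest mean stood for each of 18417 genes. Genes above the array's median on at least 2 arrays (12978) were tested with limma 3.58.1 in R 4.3.3, all arrays in 1 fit of 6 groups sharing a spread per gene, two-sided, with Benjamini-Hochberg adjustment over all genes tested and a threshold of 0.05. The script was tested on simulated data. The number of arrays limits the precision; each p measures only the spread between these clones, which the labels do not call separate cultures of 1 clone.

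The members and gene lists were chosen with earlier results of these data known. Named were all members, up to 4 genes per list with the smallest p, the genes most like a member, and 3 neighbours on each side of the cluster. STAG2 and the cell type markers served as checks. The 5 members that did not pass the filter were tested only in a fit with no filter. The alternatives were the spread, filter, array scale, row per gene, moderation of the spread, parental arrays, shared parent clones and each array in turn.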

Additional observations from a re-analysis of the deposited data

Results flagged for a closer look

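The differences of RGS2 in H4 and HCT116 had opposite signs: every deficient H4 array lay above every corrected one, with a difference of 0.64, and both HCT116 knockouts lay below both wild-type clones, with a difference of -0.88 that did not pass in limma (adjusted p = 0.733). In this way 10.3% of all genes lay above in H4 and 20.4% below in HCT116. The difference between these lines was not tested, because the H4 comparison had been used to choose genes. No group holds the 4 arrays needed to look for a single array that stands apart, and no data outside the comparisons were left.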

How the results depend on the processing

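In 42MGBA and HCT116 0 of the 4 tested RGS genes, RGS18 left out, passed in limma under any alternative, with unadjusted counts of 0 in the comparisons as reported, and RGS2 kept its direction (-1.46 to -0.51 and -1.34 to -0.41 without 1 array). Genes called in H4 were 429, 34 with the spread from H4 alone, 165 with clones of a shared parent averaged and 169 (without 8-3) to 631 (without the parental line) without 1 array, with 282 without clone 10, 195 without clone 12, 223 without 8-1 and 231 without 88-1. In HCT116 they were 17, 10 with the filter at 4 arrays, 3 with the spread from HCT116 alone, 11 with an intensity trend and robust moderation, 10 with shared parents averaged and 5 (without clone 27) to 77 (without clone 7) without 1 array, with 47 without clone 21, where the lone array of an arm is assumed to vary like the other groups. In 42MGBA they were 0, and 0 to 9 without 1 array (9 without 53-1, 2 without 92). For the difference between these 2 lines they were 3, 1 with the filter at 4 arrays and 2 to 30 without 1 array (30 without clone 21, 16 without clone 7). Between corrected H4 and wild-type HCT116 3 of the 4 tested RGS genes, RGS18 left out, passed, where 52.7% of all genes did. Without 1 of the corrected H4 arrays 2 to 3 passed. With no filter, which adds the dim RGS genes, 4 passed, where 40.2% of all genes did.

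Small differences changed sign, and the cause was not tested. In 42MGBA, without the parental arrays RGS18 was 0.0055 and RGS16 -0.017; with shared parents averaged, they were 0.00035 and -0.0092. RGS10 was 0.0065 with array medians subtracted and 0.020 after quantile normalization within each line, and in HCT116 0.0042 after the latter. Without 1 array, in 42MGBA RGS18 ran from -0.13 to 0.028, RGS10 from -0.10 to 0.096 and RGS16 from -0.037 to 0.076; in HCT116 RGS18 ran from -0.19 to 0.14, RGS10 from -0.14 to 0.061, RGS16 from -0.11 to 0.23 and RGS17 from -0.23 to 0.19; between lines RGS17 ran from -0.17 to 0.25. The difference of RGS2 between HCT116 and 42MGBA was -0.28 without the parental arrays, -0.25 with shared parents averaged and -0.44 to 0.58 without 1 array.

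With the parent clone as replicate block in 42MGBA, 0 genes passed, RGS2 was -0.52, RGS18 0.025, RGS16 -0.040 and RGS17 0.0019. Deviations from the group means over 12978 genes correlated at 0.20 between 53 and the mean of 53-1 and 53-7, and at -0.17 between 92 and 92-6. Deviations within a group cancel, so both values rest on that of 92-6 and cannot decide whether the numbers act as pairs. The comparison as reported did not pair them. RGS18 was not tested with the filter at 4 arrays. Dim signals and the number of clones limit all values.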
